A study of Mus musculus with 12 samples.

Results

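The visceral endoderm genes were a list of 44 genes known to be active in the visceral endoderm, among 22467 transcripts counted in single mouse embryos at embryonic day 8.5 (E8.5). The list was chosen with the RPF and RNA differences between mutant and wild-type embryos in view, so the differences in the members are a description. The calls printed for members come from a fit over all transcripts and describe where a member stands in it; they are no independent test of the list. RPF are ribosome-protected fragments, the pieces of mRNA shielded by translating ribosomes, and RNA is rRNA-depleted total RNA from the same lysate. Both were sequenced from 3 Rpl10a +/+ embryos (WT) and 3 Rpl10a LOF/LOF embryos (LOF), all on a C57BL/6 background, which gave 12 libraries. The LOF allele is a deletion within an intron made by CRISPR that adds a stretch of amino acids after the first methionine of the large-subunit ribosomal protein RPL10A (uL1). Each library came from 1 whole dissected embryo with no pooling, and the protocol does not say how much yolk sac stayed on it. Of the 44 members, 43 passed the filter on low values, more than 0.75 CPM (counts scaled to a common library total) in at least 3 RPF libraries, as did 12576 transcripts in all. The member that did not pass was Apoc2, an activator of lipoprotein lipase.

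The visceral endoderm is the outer epithelium of the early mouse conceptus and becomes the absorptive lining of the visceral yolk sac. Before the placenta works, its cells take up maternal proteins through large endocytic receptors, break them down in lysosomes, and pack lipid into lipoproteins that are secreted toward the embryo. They also make plasma proteins that the liver takes over later, and the nuclear receptor HNF4A drives much of this secretory program. Several members are not particular to this tissue: the keratins mark simple epithelia, GATA6 acts in heart and gut precursors, SOX17 in definitive endoderm and vessels, and megalin (LRP2) in the neuroepithelium.

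The 6 defining markers of the label, all of them members, were each detected in all 12 libraries. As members, they give no independent check of the label. In WT embryos the RPF level per kilobase of coding sequence put Ttr at the 98.9th percentile of transcripts, Apoa1 at the 98.3rd, Afp at the 97.6th, Cubn at the 90.7th, Amn at the 82.9th and Hnf4a at the 41.2nd. In whole embryos, fewer visceral endoderm cells and less RNA per cell cannot be told apart.

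The promoters of 5 members called lower, and of 1 called in neither kind of library, are shown for reference and not as a contrast. RefSeq windows of GRCm38.p6 existed for 34 of the 44 members, and the 250 bases before each start were searched on both strands for 5 motifs spelled as fixed letters, none of which contains another. For 26 members the RefSeq start lay within 100 bases of the counted transcript's start, while for Mttp and Rbm47 it lay 12041 and 21164 bases away. The HNF1 motif GTTAAT was in 7 of 34 member windows (20.6%) and in 6.43% of 32851 windows in the table. The liver-type FOXA motif TGTTTAC was in 3 windows (8.82%, against 3.17%), the HNF4 motif CAAAGTCC in 1 (2.94%, against 1.20%), the GATA motif AGATAA in 2 (5.88%, against 9.99%) and the TATA box TATAAA in 6 (17.6%, against 12.4%). GTTAAT was in 5 of 29 windows of members called lower in RPF or RNA (17.2%) and in 2 of the 5 other member windows (40.0%). This second set holds Apoc2, which did not pass the filter and was not fitted, and its window is 1 of the 2 with GTTAAT. The other motifs, in the same order of sets, were TGTTTAC in 2 of 29 (6.90%) and 1 of 5 (20.0%), AGATAA in 1 (3.45%) and 1 (20.0%), TATAAA in 6 (20.7%) and 0, and CAAAGTCC in 1 (3.45%) and 0; with 5 windows in the second set, no difference is read from these shares. These letters are a description of the windows, not sites of binding. Of the stretches shown, Afp lies at chr5:90490464-90490713, Fgb at chr3:83049864-83050113 on the minus strand, Apob at chr12:7977427-7977647, Hnf4a at chr2:163546943-163547154, Apoa1 at chr9:46228380-46228579 and Krt18 at chr15:102027966-102028179. All end before the first annotated exon of the counted transcript, are written 5′ to 3′ on the gene's strand, and carry the motif letters in capitals. In Afp, GTTAAT spans 128 to 123 and TATAAA 30 to 25 bases before the counted start. The reverse complement of GTTAAT spans 29 to 24 bases before the start in Fgb, and occurs as a pair in Hnf4a, at 114 to 109 and 107 to 102. In Apob, TATAAA spans 31 to 26 bases before the start. The stretches of Apoa1, which was low, and of Krt18, whose level did not separate the genotypes, hold none of the 5 motifs.
Afp: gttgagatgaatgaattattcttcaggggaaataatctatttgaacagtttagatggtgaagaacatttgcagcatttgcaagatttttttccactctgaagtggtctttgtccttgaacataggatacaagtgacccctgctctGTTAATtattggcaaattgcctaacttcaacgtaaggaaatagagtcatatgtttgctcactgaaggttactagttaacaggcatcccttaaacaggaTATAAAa
Fgb: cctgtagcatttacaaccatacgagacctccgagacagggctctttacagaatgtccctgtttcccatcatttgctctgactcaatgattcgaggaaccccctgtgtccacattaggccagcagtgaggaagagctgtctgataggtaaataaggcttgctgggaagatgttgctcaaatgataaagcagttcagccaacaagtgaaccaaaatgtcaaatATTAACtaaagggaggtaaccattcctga
Apob: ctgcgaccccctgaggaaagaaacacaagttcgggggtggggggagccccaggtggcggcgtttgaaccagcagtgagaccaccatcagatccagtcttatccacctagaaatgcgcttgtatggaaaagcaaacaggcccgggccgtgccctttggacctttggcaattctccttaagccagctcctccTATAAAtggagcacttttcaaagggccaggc
Hnf4a: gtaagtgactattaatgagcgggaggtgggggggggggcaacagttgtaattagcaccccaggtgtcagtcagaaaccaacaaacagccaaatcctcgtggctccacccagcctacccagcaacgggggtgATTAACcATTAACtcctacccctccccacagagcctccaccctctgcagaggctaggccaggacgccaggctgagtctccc
Apoa1: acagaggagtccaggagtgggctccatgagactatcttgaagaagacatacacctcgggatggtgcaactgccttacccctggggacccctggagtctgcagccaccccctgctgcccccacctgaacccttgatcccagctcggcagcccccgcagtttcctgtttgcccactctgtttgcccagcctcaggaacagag
Krt18: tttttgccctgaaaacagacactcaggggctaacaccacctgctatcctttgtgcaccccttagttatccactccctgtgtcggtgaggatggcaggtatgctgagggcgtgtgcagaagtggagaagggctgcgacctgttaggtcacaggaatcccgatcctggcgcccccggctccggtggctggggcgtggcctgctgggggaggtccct

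Most members were lower in LOF than in WT embryos, in RPF and in RNA alike. In RPF, 30 of 43 members were called lower and none higher at a false discovery rate (FDR) below 0.1 in the edgeR fit over all transcripts, where 1.15% of transcripts were called lower. In RNA, 30 of 43 were called lower and none higher, against 3.25% of transcripts called lower. Both calls held for 25 members, against 0.954% of all transcripts, while 5 were called in RPF alone, 5 in RNA alone and 8 in neither. Some members lay near the threshold in both kinds, so a call in 1 kind alone is not a difference between kinds. The edgeR FDR was 0.0887 in RPF and 0.1025 in RNA for Mcoln2, and 0.1105 and 0.0967 for Dpp4. Every LOF embryo lay below every WT embryo for 33 of 43 members in RPF and 35 in RNA, where 9.45% and 12.6% of all transcripts did so. Because the members were picked on this contrast, these shares are not evidence beyond it.

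The median log2 fold change (LOF minus WT) of the 43 members was -1.06 in RPF, with a range from -1.46 (Apoa4) to 0.23 (Krt19), and -1.11 in RNA, from -1.66 (Apoa4) to 0.14 (Gata6). The median over all transcripts was 0.00 in both. With so few embryos the number of calls depended on single embryos. Leaving out WT replicate 1 or WT replicate 2 left 0 of 43 RPF calls by edgeR, although 35 members had an unadjusted p below 0.05 in each case. Leaving out WT replicate 3 left 18, LOF replicate 1 left 6 and LOF replicate 3 left 5, while 36 were called without LOF replicate 2. In RPF, DESeq2 called 13 members and limma-voom 32. In RNA, 12 were called without WT replicate 1 and between 22 and 36 without another embryo, while DESeq2 called 26 and limma-voom 34. The signs moved less than the calls: between 38 and 41 of 43 members were below 0 in RPF under each of 15 alternatives.

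**Figure D1:**
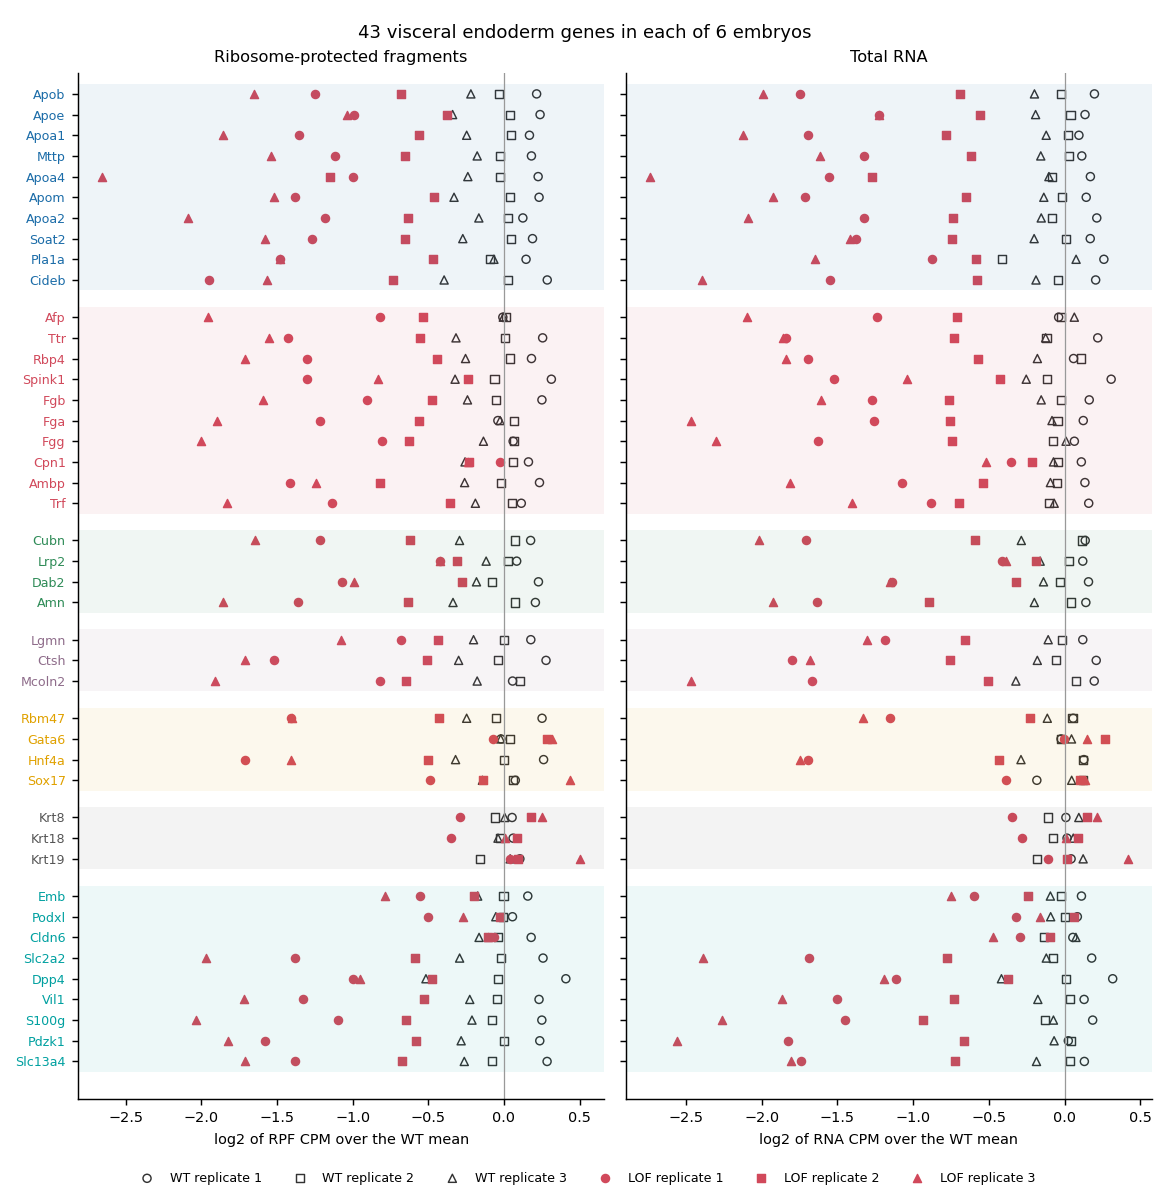
Each row is 1 of 43 members, grouped by role and shaded by group; the x axis is the log2 of its CPM in each embryo over the mean of the 3 WT embryos, for RPF (left) and RNA (right), with open black symbols for WT and filled red symbols for LOF embryos. Most rows show the 3 LOF embryos to the left of the WT embryos, with LOF replicate 2 (squares) nearest to WT. For the keratins, Gata6, Sox17, Podxl and Cldn6 the LOF and WT embryos overlap.

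Depth ranged from 7041357 to 10863499 counts per RPF library and from 9132521 to 26561843 per RNA library. Rpl10a itself lay between 939.7 and 1125 CPM in LOF RPF libraries against 1562 to 1679 in WT, and between 695 and 753 against 789 and 870 CPM in RNA; the allele leaves the transcript in place, so this does not check the labels. Embryo sex was not determined in the study. The summed RPF level of 4 Y-linked genes (Uty, Kdm5d, Ddx3y and Eif2s3y) was 163 to 181 CPM in the 3 WT embryos, 153 in LOF replicate 2, and 9.33 and 0.380 in LOF replicates 1 and 3. The WT embryos and LOF replicate 2 thus shared a high level, and a difference in sex cannot be told apart from the genotype in the other two LOF embryos.

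LOF replicate 2, the only LOF embryo with a Y-linked level like that of WT, had the smallest reduction. In this embryo the members lay at a median log2 difference of -0.45 from the WT mean in RPF and -0.56 in RNA, against -1.10 and -1.21 in LOF replicate 1 and -1.48 and -1.50 in LOF replicate 3. It was below the lowest WT embryo for 33 of 43 members in RPF and 35 in RNA, while LOF replicate 1 was so for 40 and 41 and LOF replicate 3 for 36 and 38. With the Y-linked level as a covariate the median was -0.51 in RPF and -0.60 in RNA, and 0 members in RPF (28 at an unadjusted p below 0.05, edgeR) and 14 in RNA were called.

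Apolipoproteins and the machinery that loads them with lipid were low in every LOF embryo. All 10 measured members of this group were called lower in RPF and 8 in RNA, and every LOF embryo lay below every WT embryo for all 10 in both. Apob (chr12:7977648-8016835), the scaffold of secreted lipoproteins, had the highest RPF count of any member. Its RPF level was 3828, 3226 and 2832 CPM in WT replicates 1, 2 and 3 and 1386, 2055 and 1049.6 CPM in LOF replicates 1, 2 and 3, an RPF log2 fold change of -1.14 ± 0.20 (SE). Apob RNA was 2004, 1719.7 and 1523 CPM in WT and 521, 1084 and 439.9 CPM in LOF embryos (-1.36 ± 0.27 on the log2 scale). The genotypes did not overlap, and LOF replicate 2 was the highest LOF embryo in both kinds of library.

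Apoe (chr7:19696109-19699188), the ligand for remnant uptake, had RPF levels of 818, 713 and 547 CPM in WT and 349, 534 and 338 CPM in LOF embryos, so that WT replicate 3 and LOF replicate 2 almost met. Its RPF log2 fold change of -0.77 ± 0.18 was the smallest of the group, and its RNA log2 fold change was -0.96 ± 0.16, with RNA levels of 372, 348 and 297 CPM against 145, 230.4 and 145 CPM. Apoa1 (chr9:46228580-46230466), the main protein of high-density lipoprotein, had RPF levels of 615, 565 and 461 CPM in WT and 213, 371 and 151 CPM in LOF embryos and a log2 fold change of -1.16 ± 0.25. The LOF mean was 44.8% of the WT mean in RPF and 37.3% in RNA, where the levels were 227, 216 and 196 CPM against 65.7, 123 and 48.8 CPM. Mttp (chr3:138089854-138131377), the transfer protein that puts lipid onto APOB, had RPF levels of 207, 179 and 161 CPM against 84.2, 116 and 62.9 CPM (-1.06 ± 0.18) and RNA levels of 106, 100.1 and 87.8 CPM against 39.0, 63.9 and 31.9 CPM (-1.09 ± 0.19).

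Apoa4, Apoa2, Apom and Soat2 had RPF log2 fold changes from -1.46 to -1.04, and RNA log2 fold changes from -1.66 to -1.10. SOAT2 makes the cholesterol esters that lipoproteins carry. Apoa4 stood apart within the group, with LOF replicate 3 at 15.9% of the WT mean in RPF and 15.0% in RNA. Cideb, a lipid droplet protein that helps to enlarge nascent lipoproteins, and Pla1a, a secreted phosphatidylserine lipase, were called in RPF but not in RNA. Cideb had RPF levels of 6.86, 5.74 and 4.27 CPM in WT and 1.46, 3.37 and 1.90 CPM in LOF embryos (-1.31 ± 0.30), and RNA levels of 2.60, 2.19 and 1.98 CPM and 0.769, 1.51 and 0.429 CPM (-1.15 ± 0.33). Pla1a had 6.76, 5.74 and 5.84 CPM against 2.19, 4.42 and 2.19 CPM in RPF (-1.06 ± 0.26) and 3.61, 2.26 and 3.18 CPM against 1.64, 2.01 and 0.965 CPM in RNA (-0.83 ± 0.27). Both are low transcripts, and Cideb overlaps Nop9 on the other strand, so reads of the pair can be told apart only where strand was used. Apoc2 had 0 RPF counts in all 6 libraries, which allows up to 3 counts or 0.274 to 0.437 CPM in each, and RNA levels of 0.903, 0.614 and 0.578 CPM in WT against 0.205, 0.252 and 0.322 CPM in LOF embryos. It shares exons with the read-through gene Gm44805, for which no counts are listed. Whether reads of Apoc2 were lost this way was not tested, and its low counts are uncertain.

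Secreted carrier and plasma proteins gave 6 calls of lower RPF and 8 of lower RNA among 10 members, with a median log2 fold change of -1.03 in RPF and -1.16 in RNA. Afp (chr5:90490737-90508907), alpha-fetoprotein, was the member with the least relative spread in RPF among WT embryos, with RPF levels of 962, 975 and 964 CPM, and spread widely among LOF embryos, at 549, 668 and 249 CPM. Its RPF log2 fold change of -0.99 ± 0.26 was not called, while in RNA, at 330.5, 334 and 355 CPM against 144, 207 and 79.4 CPM, the log2 fold change of -1.22 ± 0.24 was. No LOF embryo reached the WT range in either. Ttr (chr18:20665280-20674321), transthyretin, carries thyroid hormone and, bound to RBP4, vitamin A. It had RPF levels of 447, 376 and 301 CPM in WT and 139, 255 and 128 CPM in LOF embryos (-1.11 ± 0.23), and RNA levels of 228, 181 and 179.9 CPM and 54.7, 118 and 54.1 CPM (-1.34 ± 0.25). Its partner Rbp4 (chr19:38116630-38124828) had RPF levels of 352, 319 and 261 CPM and 126, 229 and 95.011 CPM (-1.05 ± 0.25), and RNA levels of 120.4, 124 and 102 CPM and 35.8, 77.9 and 32.3 CPM (-1.21 ± 0.26). The carrier and its partner thus kept the same order of embryos in RPF, with LOF replicate 2 highest and LOF replicate 3 lowest among LOF embryos.

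Spink1 (chr18:43728082-43737557), a secreted trypsin inhibitor, was 1 of 2 members of this group whose genotypes overlapped in RPF: WT embryos had 200.5, 154 and 129 CPM and LOF embryos 65.4, 137 and 90.7 CPM (-0.72 ± 0.22, not called). In RNA, at 92.3, 69.0 and 62.6 CPM against 26.0, 55.5 and 36.3 CPM, it was called (-0.90 ± 0.23). Ambp (chr4:63143275-63154173), the precursor of the lipocalin alpha-1-microglobulin and the protease inhibitor bikunin, was called in RPF only, with 8.23, 6.91 and 5.84 CPM against 2.62, 3.96 and 2.95 CPM in RPF (-1.13 ± 0.22) and 2.48, 2.19 and 2.12 CPM against 1.08, 1.56 and 0.643 CPM in RNA (-0.92 ± 0.27). The 3 chains of fibrinogen, the clotting precursor, are neighbours on chromosome 3 and had close values: RPF log2 fold changes were -1.13 ± 0.24 for Fga, -0.93 ± 0.22 for Fgb and -1.06 ± 0.25 for Fgg, and RNA log2 fold changes -1.23 ± 0.26, -1.12 ± 0.17 and -1.33 ± 0.26. All 6 of these differences were called. Trf, the iron carrier transferrin, was called in RNA (-0.88 ± 0.19) and not in RPF (-1.01 ± 0.29). Its level is uncertain, since it shares exons on 1 strand with Gm20425, which was counted as a transcript of its own and held 0 RPF counts in every library. Cpn1, a carboxypeptidase subunit, was called in neither, with log2 fold changes of -0.17 ± 0.13 in RPF and -0.33 ± 0.10 in RNA.

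**Figure D2:**
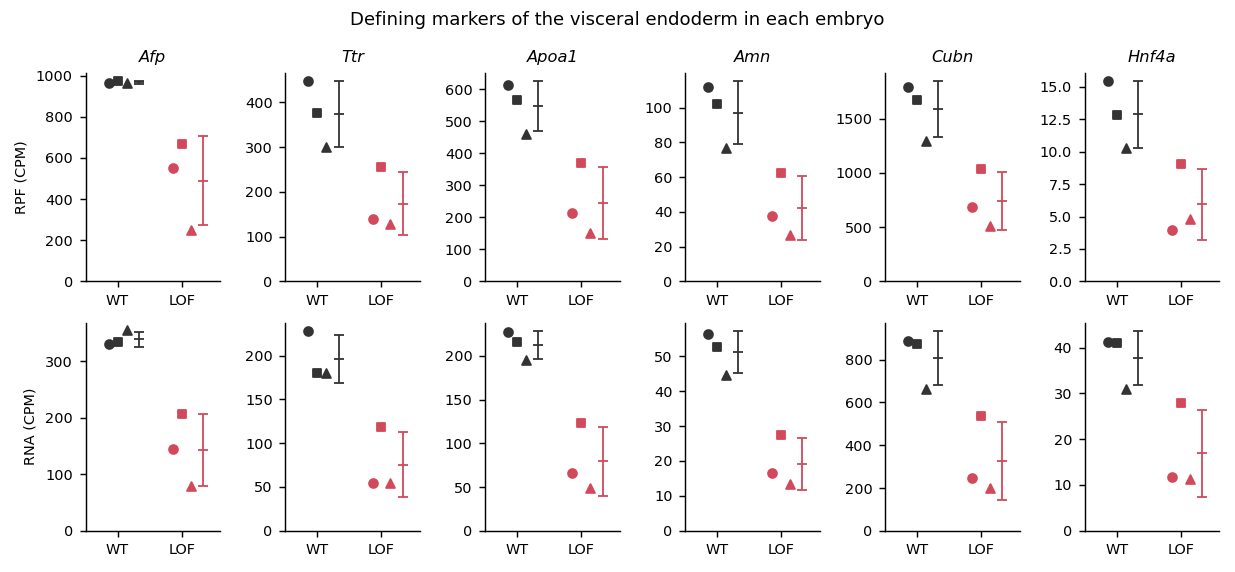
CPM of the 6 defining markers Afp, Ttr, Apoa1, Amn, Cubn and Hnf4a in each embryo, RPF above and RNA below, on linear axes from 0; circles, squares and triangles are replicates 1, 2 and 3, and the bars give the mean ± SD of 3 embryos. In all 12 panels every LOF embryo lies below every WT embryo, and the square of LOF replicate 2 is the highest of the LOF embryos.

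Receptors and adaptors of protein uptake were all called lower in RPF and in RNA, but Lrp2 by much less than the others. Cubilin (Cubn, chr2:13276338-13491813), the peripheral receptor for apolipoprotein A-I, albumin and vitamin-carrier complexes, had RPF levels of 1797, 1676 and 1297 CPM in WT and 685, 1033 and 508 CPM in LOF embryos (-1.10 ± 0.21), and RNA levels of 888, 874 and 663 CPM and 248, 535 and 199.7 CPM (-1.29 ± 0.30). Amnionless (Amn, chr12:111271095-111276426), which anchors cubilin in the membrane, followed it with 112, 102 and 76.8 CPM against 37.7, 62.5 and 26.7 CPM in RPF (-1.20 ± 0.24) and 56.5, 52.8 and 44.7 CPM against 16.5, 27.6 and 13.5 CPM in RNA (-1.38 ± 0.21). The LOF mean was 46.6% of the WT mean for Cubn and 43.6% for Amn in RPF.

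Dab2 (chr15:6386598-6440705), the clathrin adaptor that brings these receptors into coated pits, had RPF levels of 358, 289.6 and 269.7 CPM against 146, 252 and 154 CPM (-0.73 ± 0.18) and RNA levels of 223, 195 and 181 CPM against 90.6, 159.8 and 89.7 CPM (-0.80 ± 0.19). Megalin (Lrp2, chr2:69424340-69586065), the transmembrane partner of cubilin, had 824, 791 and 716 CPM against 579, 626 and 579 CPM in RPF (-0.39 ± 0.07) and 559.6, 525 and 461 CPM against 387, 452 and 394 CPM in RNA (-0.32 ± 0.08). The Lrp2 difference was small but even, with LOF means at 76.5% of WT in RPF and 79.8% in RNA and with LOF replicates 1 and 3 at almost the same level.

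The 3 lysosomal members were called lower in RPF, and Ctsh and Lgmn in RNA as well. Legumain (Lgmn, chr12:102394098-102439813), an asparaginyl endopeptidase, had RPF levels of 325, 287 and 249.7 CPM in WT and 179, 212 and 136 CPM in LOF embryos (-0.71 ± 0.14), and RNA levels of 171, 155 and 146 CPM and 68.9, 99.5 and 63.5 CPM (-1.003 ± 0.14). Cathepsin H (Ctsh, chr9:90054267-90076089), an aminopeptidase, had 136, 109.6 and 91.3 CPM against 39.2, 79.0 and 34.2 CPM in RPF (-1.15 ± 0.26) and 76.4, 63.7 and 58.4 CPM against 19.0, 39.1 and 20.6 CPM in RNA (-1.30 ± 0.23). Mcoln2 (chr3:146150174-146195512), a cation channel of endosomes and lysosomes, was called in RPF alone, with 10.4, 10.8 and 8.86 CPM against 5.68, 6.40 and 2.66 CPM (-1.06 ± 0.26), and had RNA levels of 7.45, 6.87 and 5.205 CPM against 2.05, 4.58 and 1.18 CPM (-1.19 ± 0.34). For all 3, no LOF embryo reached the lowest WT embryo in either kind of library.

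Among the regulators, Hnf4a was called lower in RPF and RNA and Rbm47 in RPF, while Sox17 and Gata6 were called in neither. Hnf4a (chr2:163547188-163572905) had RPF levels of 15.4, 12.9 and 10.3 CPM in WT and 3.94, 9.08 and 4.85 CPM in LOF embryos (-1.11 ± 0.26), and RNA levels of 41.2, 41.1 and 30.9 CPM and 11.6, 27.9 and 11.3 CPM (-1.11 ± 0.29); both were called. Rbm47 (chr5:66016549-66173118), an RNA-binding protein that acts in mRNA editing of Apob in the gut, had 42.4, 34.4 and 30.0 CPM against 13.4, 26.4 and 13.5 CPM in RPF (-1.003 ± 0.23, called) and 33.6, 33.5 and 29.9 CPM against 14.6, 27.5 and 12.9 CPM in RNA (-0.78 ± 0.22, not called).

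Gata6, a zinc-finger factor of primitive endoderm and of heart precursors, had RPF levels of 32.5, 33.8 and 32.4 CPM in WT and 31.3, 40.0 and 41.0 CPM in LOF embryos (0.19 ± 0.11). Its RNA levels were 43.7, 43.7 and 45.8 CPM and 44.3, 53.4 and 49.1 CPM (0.14 ± 0.08). Sox17 (chr1:4490931-4496413) had 10.8, 10.7 and 9.28 CPM against 7.29, 9.31 and 13.9 CPM in RPF (0.02 ± 0.21) and 9.82, 12.1 and 11.5 CPM against 8.51, 11.98 and 12.2 CPM in RNA (-0.07 ± 0.15). The genotypes overlapped in both for each gene. For Sox17 the sign in RPF changed with the embryos used, from -0.29 to 0.19 when 1 was left out.

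The 3 keratins, intermediate filament proteins of simple epithelia, were called in neither kind of library, and their genotypes overlapped in both. Krt8 (chr15:101996698-102004482) had RPF levels of 640.4, 591 and 619 CPM in WT and 505, 699 and 736 CPM in LOF embryos (0.07 ± 0.12), and RNA levels of 291, 268 and 308 CPM and 227, 320.4 and 335 CPM (0.02 ± 0.12). Its filament partner Krt18 (chr15:102028180-102032027) had 518, 488 and 483 CPM against 389, 527 and 499 CPM in RPF (-0.07 ± 0.10) and 191, 179 and 196 CPM against 155, 201 and 189 CPM in RNA (-0.05 ± 0.09). Krt19 (chr11:100140810-100146120) had 103, 85.4 and 98.2 CPM against 98.2, 102 and 135 CPM in RPF (0.23 ± 0.12) and 38.0, 32.6 and 40.2 CPM against 34.2, 37.3 and 49.3 CPM in RNA (0.11 ± 0.13). For Krt8 and Krt18 LOF replicate 1 was the lowest of all 6 embryos in both, and for Krt19 LOF replicate 3 was the highest.

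Of 9 members at the apical surface, 5 were called lower in RPF and 7 in RNA, and Podxl and Cldn6 in neither. Called lower in RPF and RNA were Slc2a2, the glucose transporter GLUT2, Slc13a4, a sulfate transporter, Pdzk1, a scaffold of apical transporters, Vil1, the microvillus protein villin, and S100g, the calcium-binding protein calbindin-D9k. Slc2a2 (chr3:28697903-28731359) had RPF levels of 108, 89.4 and 73.9 CPM in WT and 34.8, 60.2 and 23.1 CPM in LOF embryos (-1.21 ± 0.27), and RNA levels of 76.8, 64.4 and 62.4 CPM and 21.1, 39.7 and 13.0 CPM (-1.40 ± 0.28). The other 4 had RPF log2 fold changes between -1.23 and -1.11 and RNA log2 fold changes between -1.39 and -1.23. Pdzk1 overlaps Gpr89, and Vil1 overlaps Usp37, on the other strand. S100g, the only member on the X chromosome, had LOF means at 44.9% of WT in RPF and 36.5% in RNA.

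Emb (chr13:117220272-117274415), embigin, a chaperone of monocarboxylate transporters, was called in RNA (-0.51 ± 0.11) and not in RPF (-0.49 ± 0.13), with RPF levels of 808, 723 and 642 CPM in WT and 493, 632 and 419.8 CPM in LOF embryos and RNA levels of 668, 608 and 579 CPM and 408, 523 and 367 CPM. No LOF embryo reached the WT range. Dpp4, a surface dipeptidyl peptidase, was likewise called in RNA alone (-0.80 ± 0.22, against -0.79 ± 0.21 in RPF), but its genotypes overlapped in both. Podxl (chr6:31519488-31563981), the sialomucin podocalyxin, had 562, 539 and 521 CPM against 381, 529.8 and 449 CPM in RPF (-0.25 ± 0.10) and 659.6, 624 and 584 CPM against 498, 649.6 and 555 CPM in RNA (-0.13 ± 0.09). The tight junction protein Cldn6 (chr17:23679249-23682446) had 147, 126 and 116 CPM against 124, 121 and 120.5 CPM in RPF (-0.09 ± 0.09) and 109, 95.6 and 111 CPM against 85.9, 98.4 and 75.9 CPM in RNA (-0.26 ± 0.09). Neither was called, and for both the genotypes overlapped.

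RPF and RNA moved by similar amounts. Translation efficiency (TE), the RPF difference beyond the RNA difference, had a median log2 fold change of 0.12 over the members, with a range from -0.23 (Pla1a) to 0.30 (Lgmn), against 0.01 over all transcripts. It was above 0 for 33 of 43 members and for 52.0% of all transcripts, so the fitted RNA value was the lower of the pair in most members. No transcript was called in TE by edgeR, where 559 had an unadjusted p below 0.05, and DESeq2 called 4; without LOF replicate 2 edgeR called 26. The lowest and the highest TE value of a member both lay between the 5th and the 95th percentile of all transcripts, -0.31 and 0.43.

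**Figure D3:**
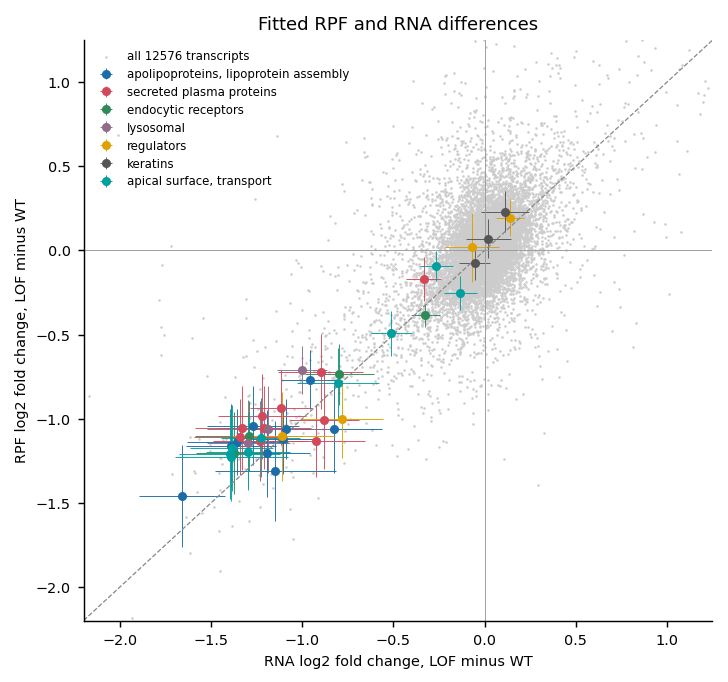
Fitted log2 fold change (LOF minus WT) in RNA (x axis) and RPF (y axis) for 12576 transcripts (grey; those beyond the axes are not drawn) and for 43 members coloured by role, with bars of 1 SE and a dashed line of equal change. Most members form a cloud near -1 on both axes, mostly above the line, and the keratins, Gata6, Sox17, Cpn1, Cldn6, Podxl and Lrp2 lie apart from it, nearer to 0 or above.

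The members also varied together among embryos of the same genotype, an order that the contrast between genotypes does not set. Among WT embryos, replicate 1 was the highest for 38 of 43 members in RPF and 34 in RNA, and replicate 3 the lowest for 38 and 32. Over all transcripts replicate 1 was the highest in 31.7% of cases in RPF and 32.2% in RNA, and replicate 3 the lowest in 34.6% and 33.8%. Among LOF embryos, replicate 2 was the highest for 36 members in RPF and 40 in RNA, where all transcripts gave 34.5% and 31.0%, and replicate 3 the lowest for 29 and 34, where all transcripts gave 28.3% and 38.8%. Members share libraries, so these counts describe 6 embryos and not 43 independent genes.

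The lowest WT embryo was the same in RPF and RNA for 35 of 43 members and the highest for 31, against 40.8% and 41.9% of all transcripts. Among LOF embryos the lowest matched for 34 members and the highest for 39, against 40.4% and 42.5%. The spread within genotype was wider too: the SD of log2(CPM + 1) had a member median of 0.22 in WT RPF against 0.10 for all transcripts, 0.51 against 0.15 in LOF RPF, 0.15 against 0.08 in WT RNA and 0.51 against 0.09 in LOF RNA. As a share of all counts, the 44 genes made up 1.50%, 1.33% and 1.17% of RPF in WT replicates 1, 2 and 3 and 0.684%, 0.995% and 0.636% in LOF replicates 1, 2 and 3. In RNA the shares were 0.794%, 0.732% and 0.662% in WT and 0.344%, 0.535% and 0.337% in LOF embryos.

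Other genes of this tissue, 94 symbols listed by role from general knowledge and none of them a member, showed the reduction in part. These genes were listed with earlier results of these data known, so their calls are no independent test. Of 81 that passed the filter, edgeR called 14 lower in RPF and 28 in RNA, where 1.15% and 3.25% of all transcripts were called lower, and none higher. Of these 81, 10 passed only with the help of WT libraries, which favours a lower LOF level. Among the 71 above the minimum in all 3 LOF RPF libraries, a restriction chosen after seeing the data, 13 were called in RPF and 27 in RNA. All 43 members that passed were above it in all 3. Left-out embryos moved these counts as they did for the members, to 0 in RPF without WT replicate 1 (26 at an unadjusted p below 0.05) or WT replicate 2 (30), 8 without WT replicate 3, 5 without LOF replicate 1, 1 without LOF replicate 3 and 36 (31 of them lower) without LOF replicate 2. In RNA, 10 were called without WT replicate 1, 15 without WT replicate 2, 14 without LOF replicate 3 and between 22 and 32 without another embryo. With the Y-linked level as a covariate, 0 were called in RPF (15 at an unadjusted p below 0.05) and 2 in RNA.

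Of 15 measured secreted plasma proteins, 4 were called lower in RPF and 5 in RNA. Apoc1, a small apolipoprotein next to Apoe, fell in RPF by edgeR from 6.47 ± 0.723 to 2.33 ± 0.556 CPM (mean ± SD; log2 fold change -1.49 ± 0.22, adjusted p = 0.0194) and in RNA (-1.35 ± 0.34, adjusted p = 0.0689). Antithrombin (Serpinc1), prothrombin (F2) and secreted phosphoprotein 2 (Spp2) fell in both as well, with edgeR RNA log2 fold changes of -1.51 ± 0.30, adjusted p = 0.0337, -1.22 ± 0.25, adjusted p = 0.0395 and -1.11 ± 0.24, adjusted p = 0.041. Plasminogen (Plg) was called in RNA only, falling from 6.61 ± 0.736 to 2.77 ± 0.440 CPM (-1.21 ± 0.16, adjusted p = 0.00771, edgeR). Albumin (Alb), the neighbour of Afp that replaces it later, and 5 others of the list did not pass the filter.

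Of 12 measured lipid genes, Fabp2 is left out of the count; of the other 11, edgeR called 3 in RNA and 0 in RPF (3 at an unadjusted p below 0.05 in RPF, where DESeq2 called 0 and limma-voom 1 with or without sva). Fabp2, the intestinal fatty acid binding protein, had low counts (14 to 28 RPF counts per WT and 3 to 6 per LOF library) and passed the filter through its WT libraries alone, so no test is given for it. Its levels were 2.24 ± 0.677 CPM in WT and 0.569 ± 0.130 CPM in LOF embryos in RPF (mean ± SD), and 1.54 ± 0.141 and 0.276 ± 0.0624 CPM in RNA. Fabp1 (-1.77 ± 0.42, adjusted p = 0.0599, against -0.08 ± 0.36 in RPF), the transcription factor gene Creb3l3 (-1.46 ± 0.21, adjusted p = 0.0107) and the triglyceride synthase gene Dgat2 (-0.50 ± 0.10, adjusted p = 0.0402) were called by edgeR in RNA. The other 8 measured, among them Dgat1, Plin2, Sar1b and Pltp, were called in neither.

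Endocytic, lysosomal and iron transport genes gave 6 calls in RPF and 10 in RNA of 15 measured. Npc1l1, the cholesterol uptake receptor, fell in RPF (-1.24 ± 0.29, adjusted p = 0.0841, edgeR) and RNA (-1.45 ± 0.38, adjusted p = 0.0837). The zinc importer Slc39a4 fell in both as well (-0.92 ± 0.15, adjusted p = 0.0302 in RPF, -0.92 ± 0.16, adjusted p = 0.0235 in RNA, edgeR), while Slc39a5 was called in RNA alone (-1.26 ± 0.22, adjusted p = 0.0237) and the iron exporter ferroportin (Slc40a1) in RPF alone (-0.91 ± 0.17, adjusted p = 0.045). Fcgrt, the receptor that carries antibodies across the yolk sac, was called in RNA (-0.76 ± 0.15, adjusted p = 0.0303, edgeR). The lysosomal cathepsins Ctsl and Ctsb fell in RPF (-0.44 ± 0.08, adjusted p = 0.0476 and -0.48 ± 0.10, adjusted p = 0.0572, edgeR) and in RNA (-0.63 ± 0.08, adjusted p = 0.00771 and -0.50 ± 0.09, adjusted p = 0.0235), as did the cholesterol exporter Abca1, while Ctsz, Scarb1 and Lrpap1 were called in RNA alone. The transferrin receptor Tfrc was called in neither, with a log2 fold change of 0.27 ± 0.07 in RPF.

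Of 10 measured transcription factors of endoderm, edgeR called Foxa3 alone, in RNA (-0.90 ± 0.21, adjusted p = 0.0555), and none in RPF. Foxa1, Foxa2, Gata4, Hhex and Prdm1 had RPF log2 fold changes of 0.05 ± 0.18, 0.03 ± 0.13, 0.13 ± 0.12, 0.04 ± 0.22 and 0.10 ± 0.12. Among 22 epithelial genes, the brush border genes Cdhr2 (-1.39 ± 0.21, adjusted p = 0.0136) and Eps8 (-0.69 ± 0.12, adjusted p = 0.0256) fell in RNA by edgeR and were called in RPF too, and Cldn7, Ezr and Slc9a3r1 were called in RNA alone. The general epithelial genes Cdh1 and Epcam had RPF log2 fold changes of -0.09 ± 0.08 and -0.04 ± 0.10. Of 7 signal and regulator genes of the visceral endoderm, Cited1 was called in RPF (-0.51 ± 0.12, adjusted p = 0.0763, edgeR) and in RNA (-0.50 ± 0.11, adjusted p = 0.0449), and Rhox5 (-1.06 ± 0.23, adjusted p = 0.041) and the hedgehog ligand gene Ihh (-0.54 ± 0.14, adjusted p = 0.0816) in RNA.

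Of the markers of other tissues, those of primitive erythroid cells had a summed level that separated the genotypes in RPF, though not in RNA, in the direction opposite to the members. In the list of 11 parietal endoderm markers, edgeR called 0 in RPF and 0 in RNA; their summed RPF level was 2933, 3077 and 3046 CPM in WT and 2842, 3278 and 3601 CPM in LOF embryos. The 6 markers of embryonic gut endoderm gave 0 calls as well, with sums of 161, 144 and 147 CPM against 152, 168 and 187 CPM in RPF. Extraembryonic mesoderm and allantois, with 7 markers and 0 calls, summed to 320.3, 277 and 318 CPM against 204, 381 and 461 CPM. The 4 trophoblast markers that passed the filter had low levels, with sums of 13.3, 11.6 and 19.3 CPM in WT and 13.3, 15.6 and 43.7 CPM in LOF embryos and Tpbpa, Prl2c2 and Gcm1 below the filter. LOF replicate 1 was the lowest of the 6 embryos for parietal endoderm and for extraembryonic mesoderm, and LOF replicate 3 the highest of the 6 in RPF for these, gut endoderm and trophoblast.

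The 8 primitive erythroid markers, the embryonic globins and their regulators from the blood islands of the yolk sac, summed to 1385, 839 and 2822 CPM in WT and 3555, 5793 and 3517 CPM in LOF embryos in RPF, and to 675, 405 and 1703 CPM and 1523, 2552 and 1809 CPM in RNA. Every LOF embryo was above every WT embryo in RPF, whereas WT replicate 3 lay above LOF replicate 1 in RNA. edgeR called 3 of the 8 higher in RPF (Hbb-y, Klf1 and Alas2), where 1.05% of all transcripts were called higher, and 1 in RNA (Alas2), where 1.77% were. Within genotypes the erythroid sums did not follow one order: LOF replicate 2 was highest among LOF embryos for these markers and for the visceral endoderm genes, while WT replicate 3 was highest among WT embryos for these markers and lowest for the visceral endoderm genes. The part of these differences in the results on the visceral endoderm genes was not tested.

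**Figure D4:**
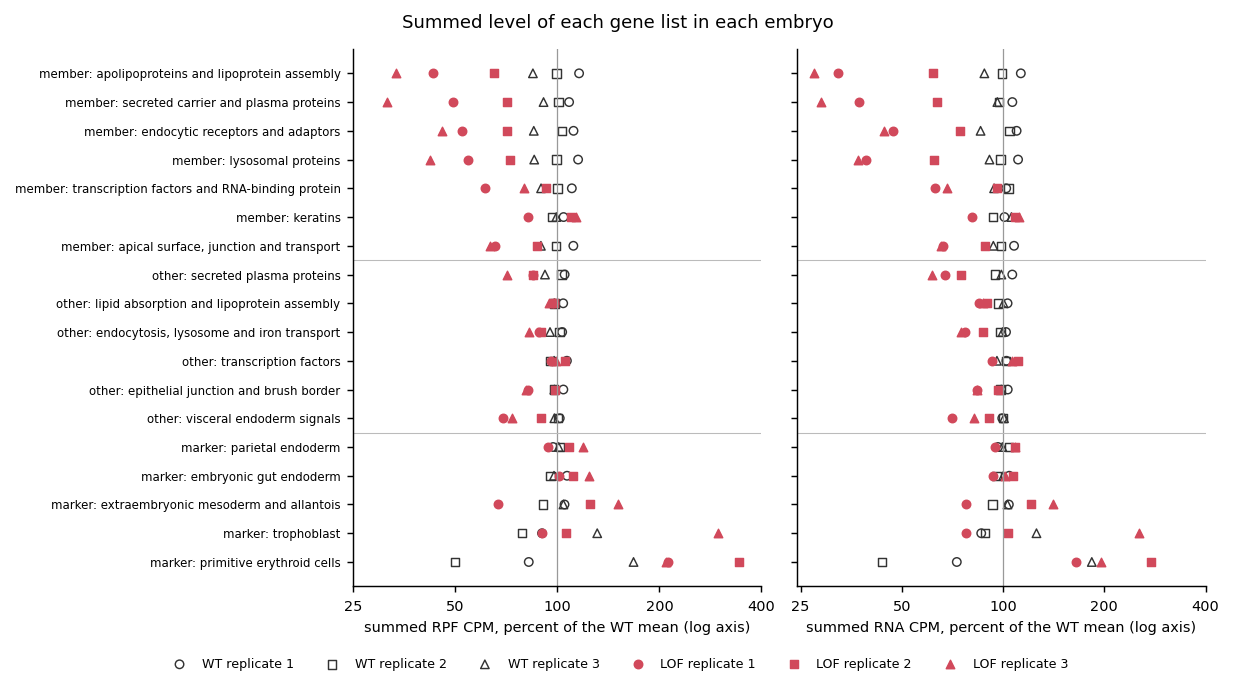
Summed CPM of each list in each embryo as a percentage of the WT mean (log axis), RPF left and RNA right, for the 7 groups of members, the 6 lists of other endoderm genes and 5 lists of markers; open black symbols are WT and filled red symbols LOF embryos. In RPF and RNA all LOF embryos lie left of all WT embryos for 5 groups of members (not the transcription factors or keratins) and for the other secreted proteins, the other endocytic genes and the visceral endoderm signals, and in RNA alone for the other lipid and epithelial genes; they lie around 100% for keratins, parietal endoderm and gut endoderm, and right of WT in RPF for primitive erythroid cells.

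In WT embryos the visceral endoderm genes had high RPF levels. Their median RPF level per kilobase of coding sequence was 73.8 CPM against 13.9 for all transcripts, and 17 of 43 lay in the top 10% of transcripts. The median RNA level per kilobase of transcript was 30.2 CPM against 10.2. Ttr stood highest in RPF at 983 CPM per kilobase, followed by Spink1 at 896, Apoe at 793, Emb at 779 and Apoa1 at 747, and the lowest was Trf at 3.16. The keratins Krt8 (438) and Krt18 (411), whose level did not separate the genotypes, lay in the upper part.

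The ratio of RPF to RNA per kilobase, a relative measure of ribosome load, was above the median of all transcripts for 38 of 43 members. The median member stood 0.87 above it on the log2 scale, from -1.31 (Slc13a4) to 2.38 (Spink1). Next to Spink1 came Fgb at 1.95, Ttr at 1.82, Cideb at 1.59, Slc2a2 at 1.55 and Rbp4 at 1.46, and Hnf4a was the second lowest at -0.63. With transcript length used for both kinds of library the median was 1.24, so the size of this value depends on the length used. These levels come from WT embryos alone, and no test was made of them.

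**Figure D5:**
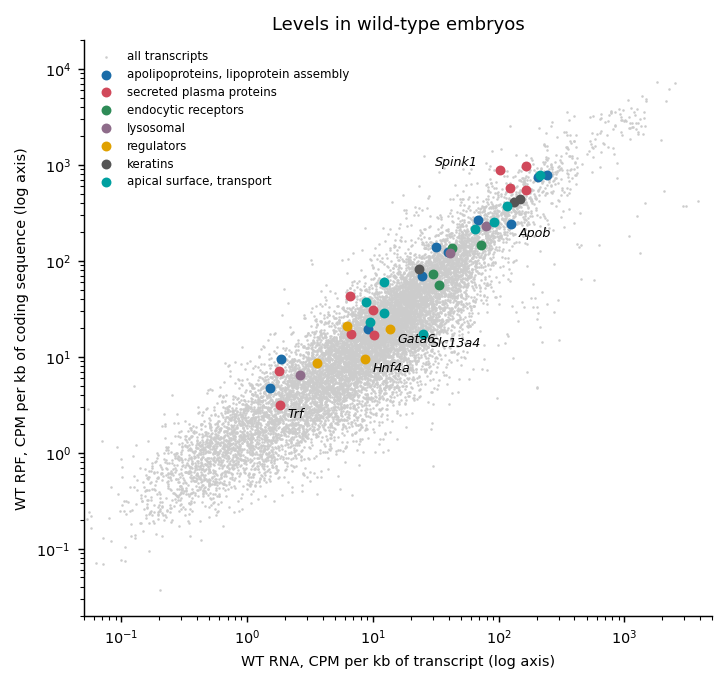
WT level in RNA (x axis, CPM per kilobase of transcript) and RPF (y axis, CPM per kilobase of coding sequence), both on log axes, for all transcripts (grey) and for 43 members coloured by role. Most members lie in the upper part of the cloud, with Spink1 high and Slc13a4 and Hnf4a low for their RNA level.

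Several members are neighbours in the genome. Apoa1 and Apoa4 lie 10.2 kb apart on chromosome 9 with Apoc3 between them, Fga lies between Fgg and Fgb on chromosome 3, and Apoe, Apoc1 and Apoc2 lie in 1 cluster on chromosome 7. The fibrinogen chains had RPF log2 fold changes from -1.13 to -0.93, and Apoa4 was lower than Apoa1 (-1.46 against -1.16). Apoc1 was lower than its neighbour Apoe (-1.49 against -0.77). Krt8 and Krt18, 23.7 kb apart on chromosome 15, had values of 0.07 and -0.07. The 44 members lie on 18 chromosomes.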

How the data were processed

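RPF and RNA libraries were made from the lysate of each of 6 single E8.5 embryos, 3 per genotype, which are separate animals. The deposited values are whole-number counts per transcript: the authors trimmed reads with cutadapt, removed rRNA and aligned with Bowtie2 to GENCODE VM20 canonical transcripts (GRCm38), removed PCR duplicates by molecular identifier with UMI-tools, and counted RPF by A-site in the coding sequence without its first 15 and last 5 codons and RNA over whole transcripts. The use of strand in counting is not given in the sources used here. Depth per library was 7041357 to 26561843 counts, and floors for a count of 0 cover counting error only.

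Transcripts above 0.75 CPM in at least 3 RPF libraries were fitted with edgeR 4.0.16 (R 4.3.3; TMM factors, quasi-likelihood test, Benjamini-Hochberg FDR below 0.1), RPF and RNA separately and translation efficiency as the interaction of genotype and library kind over 12 libraries. CPM are counts over TMM-scaled totals. DESeq2 1.42.0, limma-voom 3.58.1, sva 3.50.0 (2 surrogate variables per kind), other filters and normalizations, a Y-linked covariate and left-out embryos were alternatives. Scripts were tested on simulated data. The members, lists and alternatives were chosen with earlier results of these data known. Values per library are printed for up to 4 members per group with the highest WT RPF level, for the regulators, and for Cideb, Ambp, Mcoln2 and Pla1a. Cideb, Ambp, Mcoln2 and Pla1a were picked for a large RPF decrease in earlier results of these data. In each list of other endoderm genes, up to 5 genes called were named by size of change, and the cathepsins, Abca1, Scarb1, Lrpap1 and the genes called in neither kind of library were named after their values were seen.

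RPF and RNA deviations from the genotype mean correlated within each embryo (r from 0.167 to 0.374), while those of WT and LOF embryos of 1 number did not pair them (r from -0.0984 to 0.0944), the numbers being of different embryos. Of 22467 transcript identifiers, 21987 matched GENCODE M21 with their version, 477 without it and 3 not at all. Promoter stretches are from RefSeq (GRCm38.p6).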

Additional observations from a re-analysis of the deposited data

How the results depend on the processing

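Of the comparisons of a result with an alternative, 102 stayed within 1.5 times the count or 1 SD of the value and 37 moved; 4 of the former, over genes above the minimum in all LOF RPF libraries, were added after seeing the data. In RPF, transcripts called in all (276) became 1306 with sva, 437 with no filter, 23 with the Y-linked covariate and 4 to 1449 when an embryo was left out. Members called (30) became 13 with DESeq2, 0 with the Y-linked covariate and 0 to 36 without an embryo, and the other endoderm genes called (14) 28 with sva, 0 with the covariate and 0 to 36 without an embryo. In RNA, the calls over all transcripts (631) became 65 with the Y-linked covariate and 138 to 594 without an embryo, those of members (30) 14 and 12 to 36, and those of other endoderm genes (28) 2 and 10 to 32. The median log2 fold change of members was -0.51 in RPF and -0.60 in RNA with the covariate, and ran from -1.41 to -0.82 and from -1.44 to -0.94 when an embryo was left out. TE calls (0) became 4 with DESeq2 and 0 to 26 without an embryo. The median WT ratio of RPF to RNA was 1.24 with transcript length. With the replicate block, in which the paired numbers are only names, 313 transcripts were called in RPF and 528 in RNA, 35 and 32 members, and 17 and 28 other endoderm genes; TE gave 0 with embryo as the replicate block (873 at an unadjusted p below 0.05 in edgeR). No call count moved by over 1.5 times with this block. The cause of each move was not tested. With 3 embryos per genotype, and Y-linked levels near 0 in 2 of 3 LOF embryos, the covariate fit rests on few degrees of freedom.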
